A study of Mus musculus with 6 samples.

Results

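Genes that carry glucose from the bloodstream to pyruvate, acetyl-CoA and glycogen were examined in the myocardium of HFpEF and control mice. The list held 40 gene symbols, chosen by function and grouped as glucose transport, glycolysis, pyruvate and pyruvate dehydrogenase, glycogen, and a last pair made of the first enzyme of the pentose phosphate branch and a glucose sensor. Matching by GENCODE annotation gave 41 of the 54532 rows of the expression table, because Aldoa is annotated under 2 identifiers. Expression was measured by RNA sequencing in 6 libraries, 3 from HFpEF mice and 3 from Chow mice, each from a different animal. All animals were male C57BL/6 mice, young adults at the start, and both groups were studied after 12 weeks. HFpEF mice received a high-fat diet with 60% of kcal from fat and, at 0.5 g/L in the drinking water, L-NAME, which inhibits nitric oxide synthase. Chow mice received standard chow and regular water. Diet and L-NAME were always given together, so the effect of one cannot be told apart from that of the other. The tissue is labelled heart, and the study's methods describe left ventricular myocardium, a tissue of several cell types.

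Glucose enters heart muscle cells through the insulin-responsive transporter GLUT4 (Slc2a4) and the basal transporter GLUT1 (Slc2a1), is phosphorylated by hexokinase, and is then broken down to pyruvate by glycolysis or stored as glycogen. Pyruvate is either reduced to lactate by lactate dehydrogenase or imported into mitochondria, where the pyruvate dehydrogenase complex turns it into acetyl-CoA. Pyruvate dehydrogenase kinases (Pdk genes) switch that complex off and phosphatases such as Pdp1 switch it on, which sets how much glucose, relative to fatty acids, the heart oxidises. Several steps have a form typical of striated muscle and a form common to many cells, for example Pgam2 and Pgam1 or Eno3 and Eno1.

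Values are FPKM, the number of fragments for each kilobase of exon, relative to a size set for each library. Recovered from the FPKM, that size was 14239712, 11734336 and 12093541 in Chow replicates 1, 2 and 3, below the reads recovered. In HFpEF replicates 1, 2 and 3 it was 13847565, 16942925 and 19316914, above the reads recovered, which were 15196287 in replicate 3. The deposited values thus came already scaled between libraries, and percentages of the Chow mean rest on that scale. Reads recovered from FPKM totalled 13076772 to 15574914 per Chow library and 13461735 to 16027084 per HFpEF library. HFpEF replicate 3 stood apart from the other libraries. On the first principal component of all genes tested, which held 42.3% of the variance, it lay at 75.5, the other HFpEF libraries at 11.6 and 12.7, and the Chow libraries between -35.8 and -31.7. Mitochondrially encoded genes took 24.0% to 26.0% of the reads in each Chow library, 22.6% and 20.1% in HFpEF replicates 1 and 2, and 7.17% in replicate 3. The sum of 7 fibroblast markers was 215 to 252 FPKM in Chow, 416 and 489 FPKM in HFpEF replicates 1 and 2, and 5512 FPKM in replicate 3. The sum of 5 atrial markers, which should be low in ventricle, was 13.3, 16.2 and 538 FPKM in Chow replicates 1, 2 and 3 and 2453, 3834 and 20.6 FPKM in HFpEF replicates 1, 2 and 3. Results are therefore given with and without HFpEF replicate 3. Leaving it out kept the HFpEF libraries with high atrial markers, so it was not a cleaner comparison.

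Most of the glucose genes stood lower in HFpEF than in Chow. Of the 41 rows, 29 had every HFpEF library below every Chow library, against 19.7% of all genes tested, and for 4 each HFpEF library exceeded all Chow libraries, against 15.6% of all genes tested. The 4 higher genes were Slc2a1, Pfkfb3, Pgam1 and G6pdx, and the groups overlapped for the other 8 rows. The median log2 fold change of the 41 rows was -0.51, beside -0.012 over all 14225 genes tested, and was below 0 under every scaling of the libraries except scaling to cardiomyocyte markers, described below. The shift had the same sign in each HFpEF library. The median of the 41 rows was 79.4% of the Chow mean in replicate 1, 79.4% in replicate 2 and 55.2% in replicate 3, which was the lowest HFpEF library for 34 rows.

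No single member passed the test across all genes. In limma on log2(FPKM + 0.1), with Benjamini-Hochberg adjustment, 0 of 41 rows had an adjusted p under 0.05, against 0.0984% of all genes tested, or 0.0562% where the log2 fold change also had to reach 2 in either direction. The lowest adjusted p in limma was 0.107, for Mpc2. At an unadjusted p under 0.05, 22 rows were lower and 3 were higher, against 13.1% and 10.2% of all genes tested, and limma with voom on recovered reads likewise gave 22 lower, 3 higher and 0 with an adjusted p under 0.05. The count of 22 was 12 after quantile normalization, 7 after scaling to the FPKM sum without mitochondrially encoded genes, and 12, 10 and 14 without Chow replicates 1, 2 and 3. The shares of all genes at that unadjusted p were not computed with voom or for these alternatives. Without HFpEF replicate 3, the same test gave 19 of 41 rows with an adjusted p under 0.05, all of them lower, against 8.36% of all genes tested, 5.5% lower and 2.86% higher. Those 19 were Slc2a4 among transporters, Hk2, Pfkm, Pfkfb1, Aldoa, Tpi1, Pgk1, Pgam2, Eno3, Pkm, Ldha and Ldhb in glycolysis, Mpc2, Pdha1, Pdhb, Dlat and Pdk1 around pyruvate dehydrogenase, and Pygm and Ugp2 in glycogen metabolism. The median log2 fold change of the 41 rows without that library was -0.35. The HFpEF libraries kept were replicates 1 and 2, where the 5 atrial markers summed to 2453 and 3834 FPKM. In Chow that sum was 13.3, 16.2 and 538 FPKM. The part of atrial tissue in the 19 calls was not tested.

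**Figure D1:**
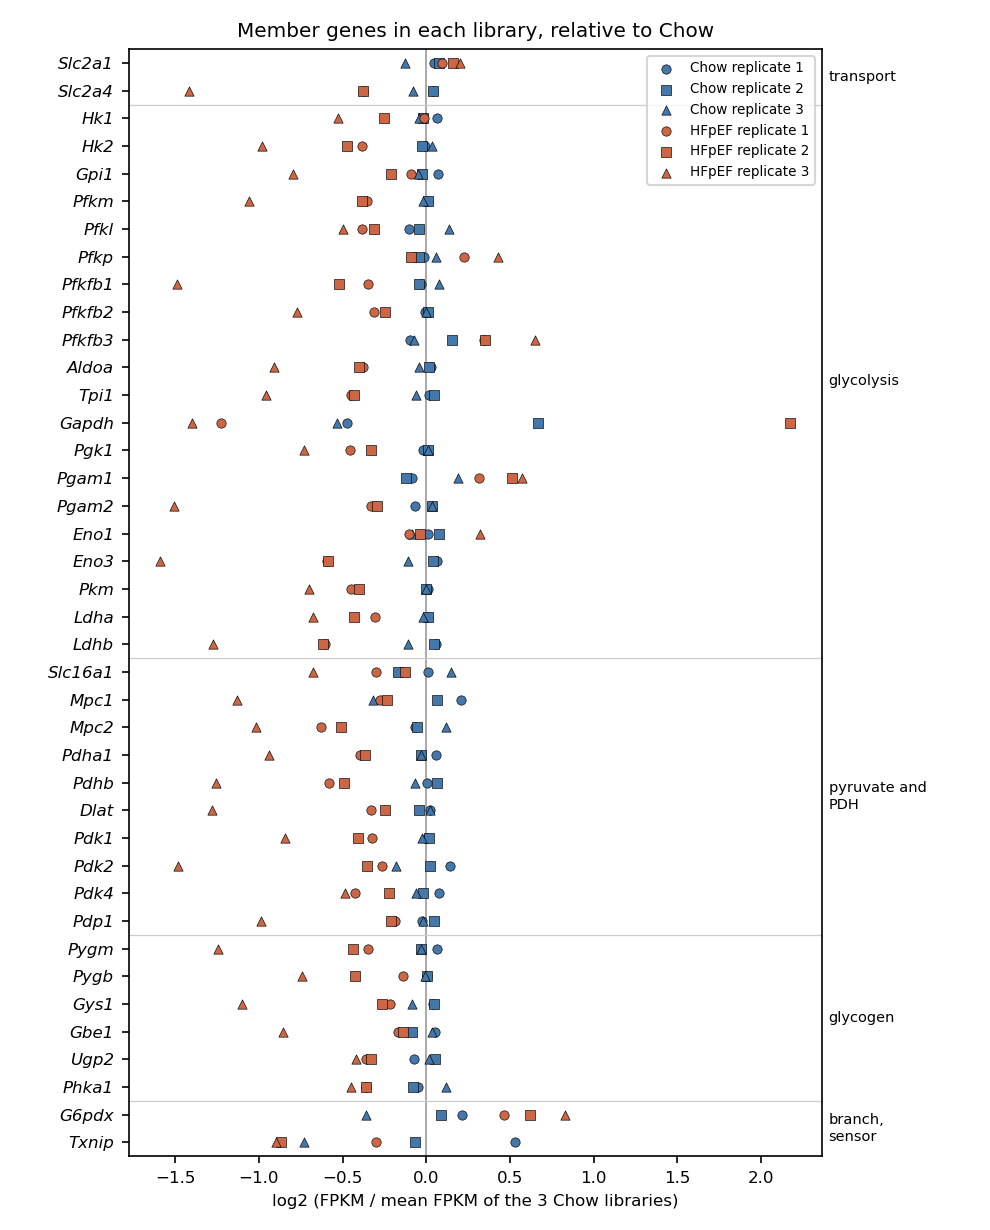
FPKM of each member gene in each of the 6 libraries as a log2 ratio to the mean of the 3 Chow libraries, by role (blue, Chow; red, HFpEF; the second row of Aldoa is not drawn). Most HFpEF points lie left of the Chow points and HFpEF replicate 3, the red triangle, is the lowest HFpEF library for 34 of 41 rows, while Slc2a1, Pfkfb3, Pgam1 and G6pdx lie to the right; the values are not scaled to cardiomyocyte markers, under which 26 of the rows change sign.

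The 2 glucose transporters differed in direction. Slc2a4 (chr11:69942539-69948188, GRCm38, minus strand), the insulin-responsive transporter, was measured at 127, 127 and 117 FPKM in Chow and at 95.2, 94.9 and 46.2 FPKM in HFpEF. Every HFpEF library lay below every Chow library, and replicate 3 lay far below the other HFpEF libraries. The mean was 123 ± 5.87 FPKM in Chow and 78.7 ± 28.2 FPKM in HFpEF (SD, n = 3 each). The limma log2 fold change was -0.72 with a standard error of 0.29 and an adjusted p of 0.204, and without HFpEF replicate 3 it was -0.38 with an adjusted p of 0.026. Slc2a1 (chr4:119108711-119137983, plus strand), the basal transporter, was measured at 5.33, 5.44 and 4.72 FPKM in Chow and at 5.50, 5.76 and 5.94 FPKM in HFpEF. Its groups did not overlap, but the difference was small, with a log2 fold change of 0.15 and a standard error of 0.11 (limma adjusted p = 0.411). Slc2a4 remained the more abundant of the pair in every library.

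Among the enzymes of early glycolysis, the muscle forms stood lower and 1 regulatory gene stood higher. Hk2 (chr6:82725025-82774454, minus strand), the hexokinase typical of insulin-sensitive muscle, was measured at 62.4, 61.7 and 64.3 FPKM in Chow and at 48.1, 45.2 and 31.9 FPKM in HFpEF. The groups were separate, and the log2 fold change was -0.61 with a standard error of 0.17 (limma adjusted p = 0.130, or 0.0184 without HFpEF replicate 3). Hk1, the hexokinase present in most cells, overlapped between groups at 20.1 ± 0.798 FPKM in Chow and 16.9 ± 2.99 FPKM in HFpEF (SD, n = 3 each). Pfkm (chr15:98092589-98132451, plus strand), the muscle subunit of phosphofructokinase, which commits sugar to glycolysis, was measured at 326, 326 and 319 FPKM in Chow and at 253, 248 and 155 FPKM in HFpEF. Its Chow libraries lay within a few FPKM of each other and all HFpEF libraries lay below them, with an adjusted p in limma of 0.177, or 0.0175 without HFpEF replicate 3. The liver subunit Pfkl was also lower in each HFpEF library, at 15.3 ± 0.994 FPKM against 20.1 ± 1.73 FPKM in Chow (SD, n = 3 each), whereas the platelet subunit Pfkp overlapped between groups. Gpi1, which converts glucose 6-phosphate to fructose 6-phosphate, was separate between groups at 94.0%, 86.4% and 57.6% of the Chow mean.

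The bifunctional Pfkfb enzymes make and remove fructose 2,6-bisphosphate, an activator of phosphofructokinase. Pfkfb1 stood at 78.5%, 69.7% and 35.6% of the Chow mean in HFpEF replicates 1, 2 and 3. Pfkfb2, the form typical of heart, stood at 80.5%, 84.3% and 58.5%. Pfkfb3 (chr2:11471433-11554077, minus strand), a form with high kinase activity that is present in many cell types, went the other way. It was measured at 2.86, 3.40 and 2.91 FPKM in Chow and at 3.88, 3.90 and 4.79 FPKM in HFpEF, without overlap. Its log2 fold change was 0.44 with a standard error of 0.14 (limma adjusted p = 0.155), and without HFpEF replicate 3 it was 0.34 (limma adjusted p = 0.158). The level of Pfkfb3 in FPKM was below that of Pfkfb2 in each library except HFpEF replicate 3, where Pfkfb3 was at 4.79 FPKM and Pfkfb2 at 4.75 FPKM.

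Aldoa, Tpi1, Pgk1 and Pkm, abundant enzymes of the middle and end of glycolysis, were lower in all HFpEF libraries. Aldoa (chr7:126795234-126800751, minus strand), aldolase A, was measured at 752, 746 and 718 FPKM in Chow and at 569, 560 and 393 FPKM in HFpEF. Tpi1 (triosephosphate isomerase), Pgk1 (phosphoglycerate kinase) and Pkm (pyruvate kinase) lay between 73.0% and 79.4% of the Chow mean in HFpEF replicates 1 and 2 and at 51.5%, 60.1% and 61.6% in replicate 3. The 3 Chow libraries of Pkm differed little, at 251, 248 and 248 FPKM, while the HFpEF libraries were at 182, 188 and 153 FPKM. For Pkm the log2 fold change was -0.52 with a standard error of 0.13 (limma adjusted p = 0.119, or 0.0147 without HFpEF replicate 3). The second row annotated as Aldoa held only 1 to 13 reads per library and its groups overlapped.

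Lower glycolysis held the largest differences and also an opposite pair. Eno3 (chr11:70657202-70662513, plus strand), the muscle enolase, was measured at 841, 826 and 747 FPKM in Chow and at 533, 535 and 267 FPKM in HFpEF. All HFpEF libraries lay well below Chow, and of the 41 rows Eno3 had the lowest log2 fold change, -0.92 with a standard error of 0.30 (limma adjusted p = 0.155, or 0.0142 without HFpEF replicate 3). Eno1, the enolase of most other cells, was at 30.8 ± 1.75 FPKM in Chow and 32.4 ± 5.34 FPKM in HFpEF (SD, n = 3 each), with overlapping groups. Pgam2 (chr11:5801640-5803733, minus strand), the muscle phosphoglycerate mutase, was measured at 453, 487 and 486 FPKM in Chow and at 377, 387 and 167 FPKM in HFpEF. Pgam1 (chr19:41911923-41918660, plus strand), the form found in most tissues, was measured at 18.9, 18.4 and 22.9 FPKM in Chow and at 25.0, 28.6 and 29.8 FPKM in HFpEF. The groups were separate for both genes and in opposite directions. In limma the log2 fold change was -0.71 with an adjusted p of 0.255 for Pgam2 and 0.47 with an adjusted p of 0.125 for Pgam1, and without HFpEF replicate 3 the adjusted p was 0.0354 for Pgam2 and 0.0916 for Pgam1.

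Both lactate dehydrogenase genes stood lower. Ldhb (chr6:142490249-142507957, minus strand), the heart-type subunit, was the most abundant member in Chow and was measured at 1061, 1050 and 946 FPKM in Chow and at 669, 664 and 421 FPKM in HFpEF. Ldha (chr7:46841475-46855627, plus strand), the subunit typical of glycolytic muscle, was measured at 203, 203 and 198 FPKM in Chow and at 163, 149 and 126 FPKM in HFpEF. Neither gene had overlapping groups. In limma the log2 fold change was -0.83 with an adjusted p of 0.125 for Ldhb and -0.47 with an adjusted p of 0.139 for Ldha, and without HFpEF replicate 3 the adjusted p was 0.0138 and 0.0246.

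Gapdh could not be measured reliably in these files. This abundant enzyme of mid-glycolysis was listed at 4.83, 10.7 and 4.64 FPKM in Chow and at 2.87, 30.3 and 2.54 FPKM in HFpEF, which corresponds to 164 to 2122 reads, far below the neighbouring enzymes Tpi1 and Pgk1. Its transcript matched 78 other annotated genes at 95% identity or more over at least 200 bases, and these matches covered 88.0% of it. How the authors' counting treated reads with several matches is not given in the sources used here, so no direction is reported for Gapdh. Near-identical genes also covered 85.6% of the Eno1 transcript, 76.8% of Ldhb, 71.2% of Pdhb, 68.8% of Pgk1, 65.5% of Pkm, 55.0% of Ldha, 50.2% of Gpi1 and 43.1% of Pgam1, so the levels of these genes may leave out shared reads. The matching gene of Ldhb held 26 to 79 reads per library and that of Pgam1 held 6 to 22. Matching genes held more reads for Mpc1, at 760 to 2159 beside 640 to 1192 for Mpc1 itself, and for Pfkp, at 633 or more beside 607 to 1387. The FPKM of Pgam1 did not give whole reads in any library, unlike those of the other members.

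The upstream sequences of 4 glycolytic genes are shown because they belong to the opposite pair of mutases, to Ldha and to Pfkfb3, the other higher gene of glycolysis. Each run is the 250 bases before an annotated RefSeq transcript start on GRCm38.p6, written 5′ to 3′ on the strand of the gene. Capitals mark ACGTG on either strand, the core of the E-box CACGTG and of the hypoxia response element, and TAAAAATA on either strand, a form of the MEF2 motif. For Ldha and Pfkfb3 the window shown is the one with CACGTG. The other window of Ldha (chr7:46846832-46847081) holds none of these motifs, and that of Pfkfb3 (chr2:11553930-11554179) holds ACGTG but not CACGTG.
Pgam1, chr19:41911621-41911870, plus strand: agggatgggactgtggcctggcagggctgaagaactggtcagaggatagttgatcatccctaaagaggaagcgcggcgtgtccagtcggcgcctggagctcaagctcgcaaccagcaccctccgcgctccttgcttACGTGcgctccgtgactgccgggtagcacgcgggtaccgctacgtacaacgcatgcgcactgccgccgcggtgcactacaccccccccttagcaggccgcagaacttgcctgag
Pgam2, chr11:5803797-5804046, minus strand: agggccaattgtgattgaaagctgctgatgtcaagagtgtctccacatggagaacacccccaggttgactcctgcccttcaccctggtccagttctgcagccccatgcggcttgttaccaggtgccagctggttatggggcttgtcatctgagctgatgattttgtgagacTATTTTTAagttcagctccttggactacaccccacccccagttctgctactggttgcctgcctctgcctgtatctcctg
Ldha, chr7:46845554-46845803, plus strand: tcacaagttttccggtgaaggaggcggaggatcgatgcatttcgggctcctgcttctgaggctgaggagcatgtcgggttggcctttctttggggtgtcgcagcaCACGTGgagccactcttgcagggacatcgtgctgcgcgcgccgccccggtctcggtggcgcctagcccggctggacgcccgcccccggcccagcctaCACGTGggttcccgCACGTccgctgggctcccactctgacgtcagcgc
Pfkfb3, chr2:11502091-11502340, minus strand: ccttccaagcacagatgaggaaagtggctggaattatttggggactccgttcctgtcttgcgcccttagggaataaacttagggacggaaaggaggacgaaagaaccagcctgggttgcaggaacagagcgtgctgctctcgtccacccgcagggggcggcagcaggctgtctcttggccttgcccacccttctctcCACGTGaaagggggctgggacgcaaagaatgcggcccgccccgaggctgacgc

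RefSeq held 58 such windows for 38 of the 40 member genes, some genes having several starts, and 32851 windows in all. ACGTG on either strand, which every CACGTG also contains, was found in 20 member windows from 16 genes, or 34.5%, against 16.6% of all windows. CACGTG was found in 6 member windows, those of Ldha, Pdk2, Pfkfb2, Pfkfb3, Pfkm and Slc16a1, against 6.02% of all windows. The MEF2 form was found in 1 member window, that of Pgam2, and in 2.45% of all windows. AAGGTCA on either strand, a form of the motif of ERR nuclear receptors, was found in 2 member windows, against 4.08% of all windows. Both Pfkfb3, higher in HFpEF, and Ldha, lower in HFpEF, held CACGTG, so the match did not separate the directions.

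**Figure D2:**
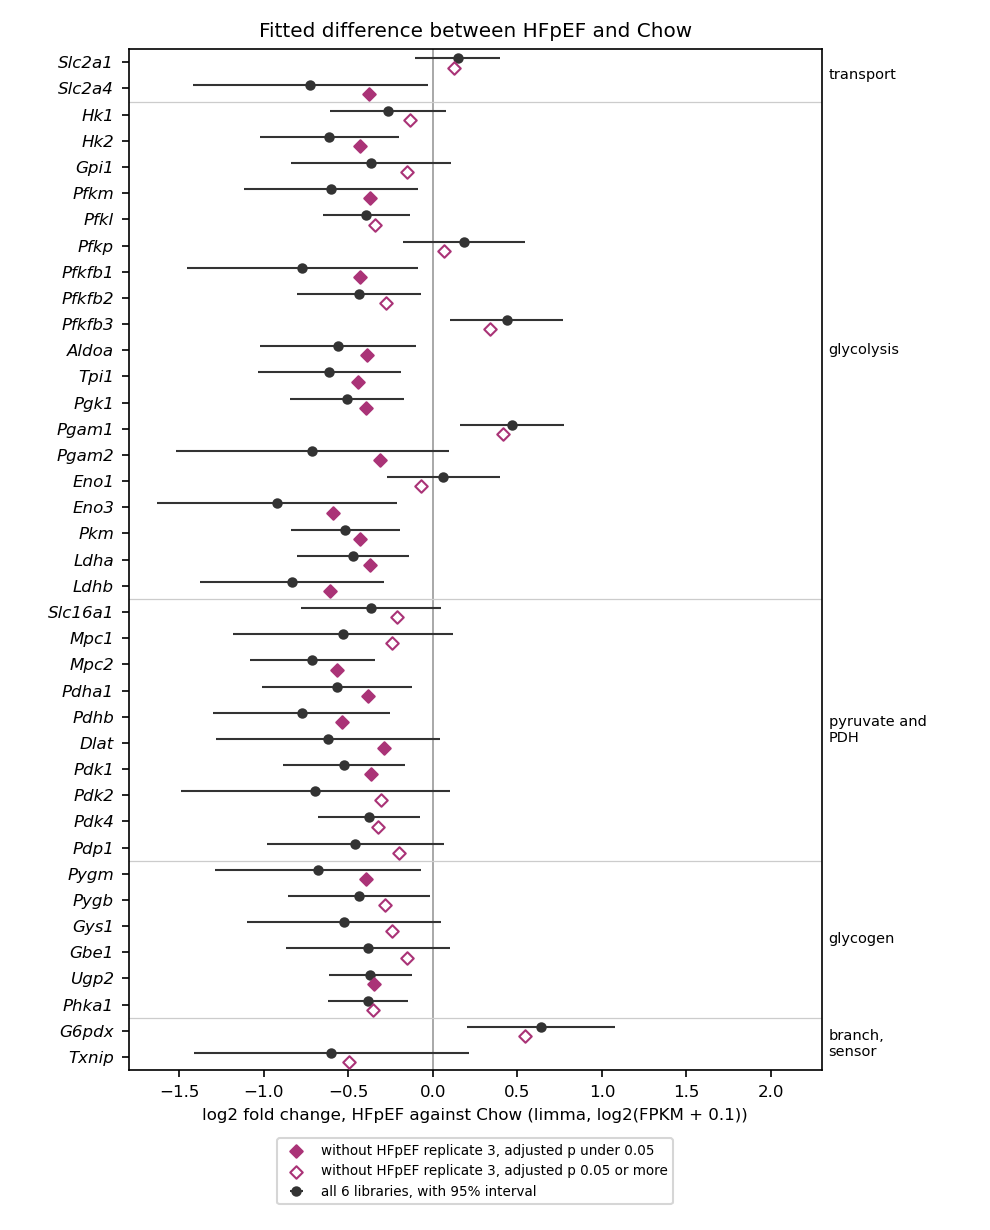
Log2 fold change of each member gene between HFpEF and Chow from limma on log2(FPKM + 0.1), with its 95% interval over all 6 libraries (circles) and without HFpEF replicate 3 (diamonds, filled where the adjusted p was under 0.05; Gapdh and the second row of Aldoa are not drawn). Circles lie mostly below 0 and diamonds lie closer to 0 for most genes, with 19 filled diamonds, all below 0; scaled to cardiomyocyte markers instead, 26 rows lie on the other side of 0.

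The genes of pyruvate transport and of pyruvate dehydrogenase, with its kinases and phosphatase, were lower as a group in the libraries as scaled. Of the 10 genes, 8 had separate groups, all lower, against 19.7% of all genes tested, and the median log2 fold change was -0.55. Mpc2 (chr1:165460637-165481214, plus strand), a subunit of the mitochondrial pyruvate carrier, was measured at 31.5, 31.8 and 35.8 FPKM in Chow and at 21.4, 23.2 and 16.3 FPKM in HFpEF. The log2 fold change of Mpc2 was -0.71 with a standard error of 0.15 (limma adjusted p = 0.107, or 0.0202 without HFpEF replicate 3). Mpc1, its partner subunit, overlapped between groups at 34.9 ± 6.25 FPKM in Chow and 24.8 ± 7.69 FPKM in HFpEF (SD, n = 3 each), as did Slc16a1, the lactate and pyruvate transporter of the cell membrane, at 58.3 ± 6.38 FPKM and 45.7 ± 8.58 FPKM.

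The 3 member genes for subunits of pyruvate dehydrogenase stood lower. Pdhb (chr14:8165996-8173025, minus strand), the E1 beta subunit, was measured at 201, 210 and 191 FPKM in Chow and at 134, 143 and 84.1 FPKM in HFpEF. Pdha1, the E1 alpha subunit, was measured at 273, 257 and 257 FPKM in Chow and at 199, 203 and 137 FPKM in HFpEF. Dlat, the E2 subunit, was measured at 99.7, 95.2 and 99.5 FPKM in Chow and at 77.9, 82.7 and 40.4 FPKM in HFpEF. The groups were separate and lower for each subunit, against 19.7% of all genes tested, and replicate 3 was the lowest library each time. The adjusted p in limma was 0.131 for Pdhb, 0.158 for Pdha1 and 0.236 for Dlat, and 0.0156, 0.0201 and 0.0427 without HFpEF replicate 3.

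Kinases that inhibit the complex and the phosphatase that activates it were lower too. Pdk4 (chr6:5483351-5496309, minus strand), a kinase gene induced by fatty acids and fasting, was measured at 131, 122 and 119 FPKM in Chow and at 92.3, 106 and 88.4 FPKM in HFpEF. Pdk2 was measured at 171, 158 and 137 FPKM in Chow and at 129, 122 and 55.5 FPKM in HFpEF. Pdk1 was at 30.8 ± 0.446 FPKM in Chow and 21.6 ± 3.97 FPKM in HFpEF, and Pdp1 at 16.0 ± 0.433 FPKM and 12.0 ± 3.38 FPKM (SD, n = 3 each). None of these 4 genes had overlapping groups, all being lower, against 19.7% of all genes tested. The log2 fold change of Pdk4 was -0.38 with a standard error of 0.13 (limma adjusted p = 0.161, or 0.0714 without HFpEF replicate 3), and of the 4 genes only Pdk1 had an adjusted p under 0.05 in limma without that library, at 0.0272.

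The 6 member genes of glycogen storage and breakdown were each lower in HFpEF without overlap, against 19.7% of all genes tested. Their log2 fold changes had a median of -0.41. The 19 other glycogen genes tested were mixed. Of these, 6 were lower and 2, Pygl and Stbd1, higher without overlap, against 19.7% and 15.6% of all genes tested, and 11 overlapped. The median log2 fold change of the 19 was -0.20, or 0.0074 without HFpEF replicate 3. Pygm (chr19:6384399-6398459, plus strand), the muscle glycogen phosphorylase, was measured at 397, 372 and 371 FPKM in Chow and at 298, 280 and 160 FPKM in HFpEF. Its log2 fold change was -0.68 with a standard error of 0.25 (limma adjusted p = 0.187, or 0.0223 without HFpEF replicate 3). Pygb, the brain form of the phosphorylase, was at 236 ± 0.836 FPKM in Chow and 177 ± 36.6 FPKM in HFpEF (SD, n = 3 each). On the synthesis side, Gys1 (glycogen synthase) was at 86.1%, 83.1% and 46.5% of the Chow mean and Gbe1 (the branching enzyme) at 88.8%, 90.9% and 55.2% in HFpEF replicates 1, 2 and 3. Ugp2 (chr11:21321138-21371201, minus strand), which makes the UDP-glucose used for synthesis, and Phka1, the muscle regulatory subunit of phosphorylase kinase, were at similar levels in the 3 HFpEF libraries. Ugp2 was at 78.0%, 79.4% and 74.6% of the Chow mean, and Phka1 at 78.0%, 78.0% and 73.2%. Their log2 fold changes were -0.37 and -0.38, each with a standard error of 0.10, and the adjusted p in limma was 0.127 and 0.119.

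G6pdx (chrX:74409483-74429194, minus strand), which opens the pentose phosphate branch and makes NADPH, was measured at 3.81, 3.49 and 2.55 FPKM in Chow and at 4.53, 5.04 and 5.82 FPKM in HFpEF. All HFpEF libraries lay above Chow, and the log2 fold change of 0.64, with a standard error of 0.18, was the highest of the 41 rows (limma adjusted p = 0.133, or 0.138 without HFpEF replicate 3). Txnip, a glucose-induced inhibitor of glucose uptake, varied more among the Chow libraries than any other member apart from Gapdh and the second Aldoa row. It was measured at 224, 149 and 93.5 FPKM in Chow and at 126, 85.0 and 83.6 FPKM in HFpEF, and the groups overlapped (limma adjusted p = 0.320).

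Ratios between forms of the same step, taken within each library, hardly depend on how the libraries are scaled, but can still differ with the mix of cells. How often other gene pairs separate the groups was not computed. Of single genes tested, 19.7% were lower and 15.6% higher without overlap. For 6 of 11 pairs the ratio was higher in every HFpEF library than in every Chow library, and for none was it lower in every one. These were Slc2a1 to Slc2a4, Hk1 to Hk2, Pfkp to Pfkm, Pgam1 to Pgam2, Eno1 to Eno3 and Ldha to Ldhb. In the first 5 of these the form named second is the one more typical of heart or skeletal muscle, while Ldha is the form of glycolytic muscle and Ldhb that of heart. The Pgam1 to Pgam2 ratio was 0.0417, 0.0379 and 0.0470 in Chow and 0.0662, 0.0739 and 0.178 in HFpEF. The Eno1 to Eno3 ratio was 0.0368, 0.0393 and 0.0387 in Chow and 0.0538, 0.0559 and 0.144 in HFpEF, and the Slc2a1 to Slc2a4 ratio was 0.0420, 0.0429 and 0.0404 in Chow and 0.0578, 0.0607 and 0.129 in HFpEF. Replicate 3 had the highest ratio in all 6 pairs. The differences between group means on the log2 scale were 1.18 for Pgam1 to Pgam2, 0.98 for Eno1 to Eno3, 0.87 for Slc2a1 to Slc2a4, 0.78 for Pfkp to Pfkm, 0.36 for Ldha to Ldhb and 0.35 for Hk1 to Hk2. Without HFpEF replicate 3 they were 0.73, 0.52, 0.50, 0.44, 0.24 and 0.30.

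By an exact two-sided permutation test each of these 6 pairs had p = 0.1 (n = 3 each), the smallest that 3 libraries against 3 allow, and 0.183 after Benjamini-Hochberg adjustment over the 11 pairs, so no pair could pass 0.05. The other pairs overlapped between groups. The Pygb to Pygm ratio was 0.596, 0.637 and 0.634 in Chow and 0.720, 0.626 and 0.883 in HFpEF, and the Pdk2 to Pdk4 ratio was 1.31, 1.29 and 1.15 in Chow and 1.40, 1.14 and 0.627 in HFpEF.

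**Figure D3:**
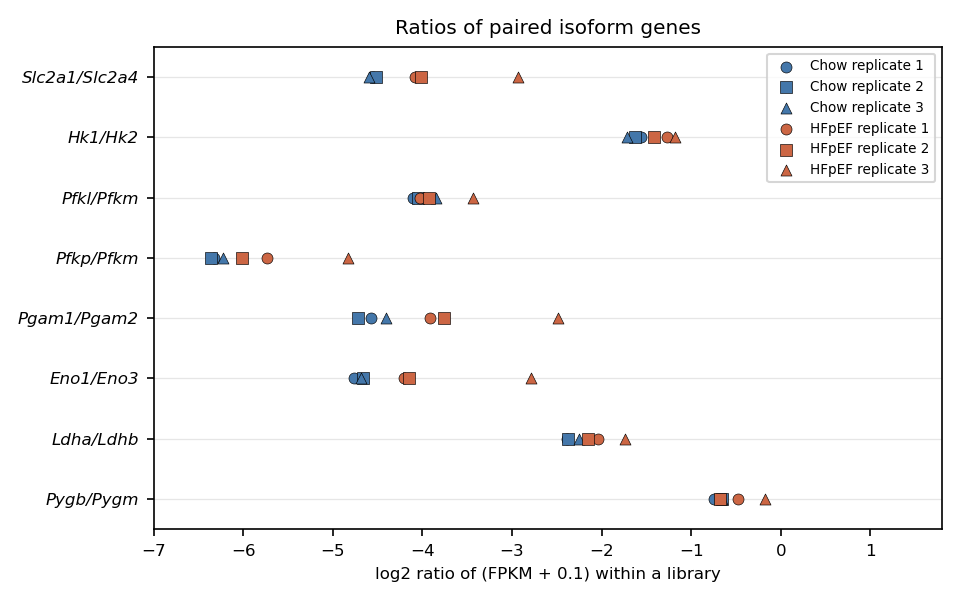
Log2 ratio of FPKM + 0.1 between paired genes of the same step within each library (blue, Chow; red, HFpEF; 3 libraries each, one symbol per replicate; the 3 Pdk pairs are not drawn). In 6 of the 8 pairs shown every HFpEF point lies to the right of every Chow point, with HFpEF replicate 3 farthest to the right, and Pfkl to Pfkm and Pygb to Pygm overlap.

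Markers of heart muscle cells moved with the glucose genes. All 10 genes of the cardiomyocyte list had every HFpEF library below every Chow library, against 19.7% of all genes tested. Their median log2 fold change was -0.61, and none of them was at 0 in any library. Their sum was 15731 to 17420 FPKM in Chow and 7677 to 11836 FPKM in HFpEF. The median of the 10 markers was 72.3%, 77.0% and 49.1% of the Chow mean in HFpEF replicates 1, 2 and 3, beside 79.4%, 79.4% and 55.2% for the glucose genes. Of the most abundant, the cardiac actin Actc1 was at 4458, 5155 and 5336 FPKM in Chow and 3435, 3820 and 2445 FPKM in HFpEF. Myl2 and Myl3 had the lowest log2 fold changes of the 10, -1.08 and -0.98. Myl2 was at 52.8%, 53.4% and 37.5% of the Chow mean in HFpEF replicates 1, 2 and 3. Myl3 was at 57.2%, 53.8% and 42.0%. In bulk tissue, fewer cardiomyocytes, less RNA of the 10 markers per cardiomyocyte and a different share of atrial tissue cannot be told apart.

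When libraries were scaled to the 10 cardiomyocyte markers instead, the median log2 fold change of the glucose genes was 0.17 and that of all genes tested was 0.65. The distance between them was -0.47, beside -0.50 with the main scaling. Scaling to markers divides each library by a single factor, so it shifts the log2 fold changes of all genes by nearly the same amount. The distance could therefore hardly change, and the changes of sign given next follow from that shift. Under that scaling 26 of the 41 rows changed sign, 0 were lower and 9 were higher at an unadjusted p under 0.05 in limma, against 0.26% and 54.3% of all genes tested, and no row had an adjusted p under 0.05, against 1.69% of all genes tested, 0.00703% lower and 1.68% higher. Slc2a4, Pfkfb1, Pgam2, Eno3, Ldhb, Mpc2, Pdhb and Pdk2 kept a negative value, from -0.24 for Eno3 to -0.01 for Pdk2.

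Markers of other cells differed in direction, with fibroblast markers higher and the sum of endothelial markers lower in HFpEF. All 7 fibroblast markers were higher in every HFpEF library, against 15.6% of all genes tested. The sum of 6 macrophage markers was 145 to 193 FPKM in Chow and 186 to 642 FPKM in HFpEF, and that of 7 endothelial markers was 254 to 272 FPKM in Chow and 199 to 210 FPKM in HFpEF. Of the 7 endothelial markers, 3 were lower in every HFpEF library and 0 were higher in every one, against 19.7% and 15.6% of all genes tested. The median of the log2 fold changes of the 7 was -0.12. The sum of 7 white adipocyte markers was 0 to 0.0481 FPKM in Chow, where 5 of them were at 0 in every library, and 36.6 to 89.3 FPKM in HFpEF. Red blood cell markers summed to 280 to 1591 FPKM in Chow and 478 to 1813 FPKM in HFpEF. Of 9 skeletal muscle genes, Ckm and Acta1, which heart also expresses, made up nearly all of the sum, and Myh4 was at 0 in every library. The part of these cells, of the mitochondrial share and of the atrial markers in the values of the glucose genes was not tested.

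**Figure D4:**
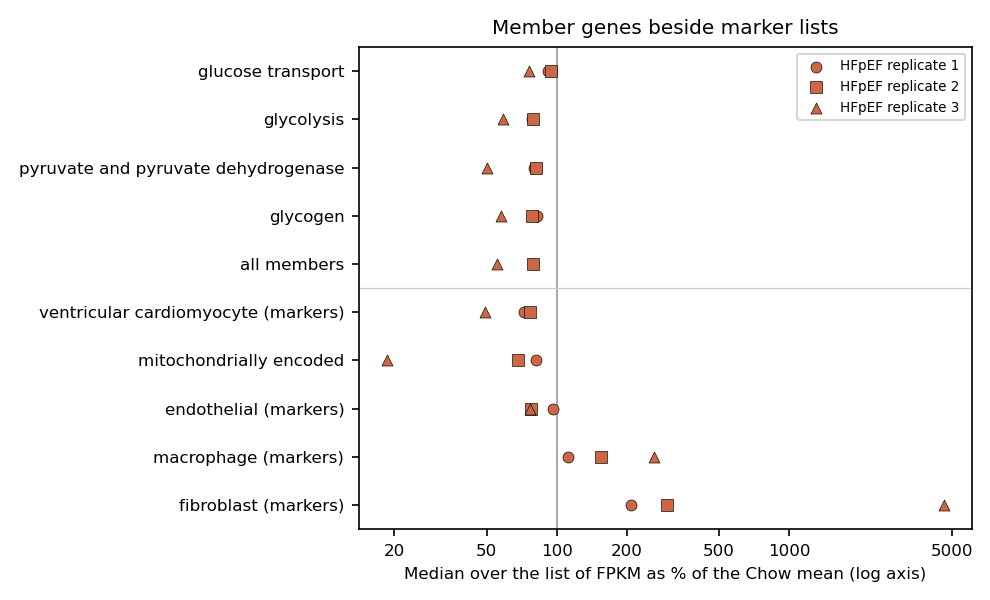
Median over each gene list of FPKM as a percentage of the Chow mean, for the 3 HFpEF libraries on a log axis, with the glucose gene groups above the line and marker lists below. The glucose genes (79.4%, 79.4% and 55.2% in replicates 1, 2 and 3) lie near the cardiomyocyte markers, labelled ventricular cardiomyocyte (72.3%, 77.0% and 49.1%). Replicate 3 stands apart for mitochondrially encoded genes and fibroblast markers. Scaled to the cardiomyocyte markers the median log2 fold change of the glucose genes is 0.17.

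A wider list of 75 other genes of the same pathways was less uniform. Of these, 68 were tested, and Hkdc1, Aldoc, Pklr, Ldhc, Fbp1, G6pc and Gys2 were too low. In limma 0 of the 68 had an adjusted p under 0.05, 15 were lower and 11 higher at an unadjusted p under 0.05, against 13.1% and 10.2% of all genes tested, and the median log2 fold change was -0.21. Without HFpEF replicate 3, 10 were lower and 6 higher with an adjusted p under 0.05, against 5.5% and 2.86% of all genes tested. Of the 5 other genes of pyruvate dehydrogenase control, 4 were lower and Pdk3 higher without overlap, against 19.7% and 15.6% of all genes tested. The E3 subunit Dld was among the lower genes. Pdk3, a kinase of low abundance in heart, was measured at 0.877, 1.46 and 1.26 FPKM in Chow and at 4.82, 3.43 and 2.89 FPKM in HFpEF. Its log2 fold change was 1.55 with a standard error of 0.26 (limma adjusted p = 0.0845, or 0.02 without HFpEF replicate 3). Pdk3 therefore stood opposite to Pdk1, Pdk2 and Pdk4.

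Among genes of sugar synthesis, Fbp2, the muscle fructose bisphosphatase, was measured at 17.6, 21.5 and 24.4 FPKM in Chow and at 12.0, 9.60 and 10.7 FPKM in HFpEF, with a log2 fold change of -0.96 (limma adjusted p = 0.0819, or 0.0284 without HFpEF replicate 3). Pck1, which makes phosphoenolpyruvate in liver and fat, held 0, 3 and 0 reads in Chow and 408, 413 and 79 reads in HFpEF. It was therefore at or near 0 in Chow and present in each HFpEF library, where the white adipocyte markers were also present. Bsg, the partner protein of the lactate transporters, was measured at 631, 617 and 672 FPKM in Chow and at 426, 450 and 361 FPKM in HFpEF (limma adjusted p = 0.118, or 0.0139 without HFpEF replicate 3). Ppara, a fatty acid receptor that drives fat oxidation genes, was measured at 9.68, 9.69 and 10.7 FPKM in Chow and at 6.42, 6.86 and 4.24 FPKM in HFpEF (limma adjusted p = 0.117, or 0.0199 without HFpEF replicate 3). Gfpt2, a first enzyme of the hexosamine branch, was measured at 4.28, 2.62 and 3.62 FPKM in Chow and at 6.04, 9.76 and 9.51 FPKM in HFpEF (limma adjusted p = 0.102, or 0.0695 without HFpEF replicate 3). The groups were separate for each of these 5 genes, lower for Fbp2, Bsg and Ppara and higher for Pck1 and Gfpt2. Of all genes tested, 19.7% were lower and 15.6% higher without overlap. These 5 genes were named for their low unadjusted p within the wider list, so separation was likely in advance and adds no evidence. With Chow at or near 0, Pck1 could pass the FPKM filter only through the HFpEF libraries, so its separation followed from being tested.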

How the data were processed

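RNA from mouse heart was sequenced in 3 Chow and 3 HFpEF libraries. The authors used HISAT2 for alignment and featureCounts for counting, and the deposited values are FPKM. Their denominators were not the read totals of the libraries, and how they were set is not given in the sources used here. The submitters' processing notes name GRCm38. Symbols, exon lengths and coordinates came from GENCODE M21, which holds 54495 of the 54532 identifiers. FPKM times exon length gave whole reads for 96.1% to 96.2% of values in each library (tolerance 1e-06), which shows counting precision only. FPKM was scaled by the median of ratios (factors 0.999 to 1.00), and log2(FPKM + 0.1) was fitted with limma 3.58.1 (eBayes with trend and robust) for genes of at least 0.5 FPKM in at least 3 libraries, with adjustment over all genes tested. Ratios of paired genes used an exact permutation test. Near-identical transcripts were found with blastn 2.17.0. The fit was tested on simulated data for HFpEF against Chow with 14220 genes and called 179 of 200 genes changed by a log2 fold change of 1, and 15 unchanged genes. Apart from the changed genes, the simulated libraries shared a common profile with a dispersion of 0.01 and held no outlying library. The simulation therefore does not give the power of the test in these data. The members, the wider list, the markers and the alternatives were chosen with earlier results of these data known. Every member is named. Of the wider list, genes with an adjusted p under 0.05, or else up to 3 in each direction with the lowest unadjusted p, are named, and Dld, Pygl, Stbd1 and genes below the filter were named after their values were seen. Scripts ran in Python 3.11.15 and R 4.3.3. Proteins were not analysed here.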

Additional observations from a re-analysis of the deposited data

How the results depend on the processing

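The count of 22 lower members was 12 after quantile normalization, 7 after scaling to the FPKM sum without mitochondrially encoded genes, 0 after scaling to cardiomyocyte markers, and 10 to 27 when each library was left out in turn. The count of 3 higher members was 9 after cardiomyocyte scaling and 2 to 3 with a library left out. Members with an adjusted p under 0.05 numbered 0 to 19 with a library left out, 19 only without HFpEF replicate 3. Their median of -0.51 was 0.17 after cardiomyocyte scaling and -0.59 to -0.35 with a library left out. In the wider list the 15 lower genes became 9, 7 and 0 under those 3 scalings and 7 to 20 with a library left out, and the 11 higher genes became 7, 18 and 34, and 7 to 11. The cause of these shifts was not tested.

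Scaled to cardiomyocyte markers, the log2 fold change turned positive for Hk1 (0.41), Hk2 (0.068), Gpi1 (0.32), Pfkm (0.081), Pfkl (0.28), Pfkfb2 (0.23), Aldoa (0.12), Tpi1 (0.068), Gapdh (0.64), Pgk1 (0.17), Pkm (0.16), Ldha (0.21), Slc16a1 (0.32), Mpc1 (0.15), Pdha1 (0.11), Dlat (0.061), Pdk1 (0.15), Pdk4 (0.30), Pdp1 (0.22), Pygm (0.0028), Pygb (0.24), Gys1 (0.15), Gbe1 (0.29), Ugp2 (0.31), Phka1 (0.29) and Txnip (0.080). Gapdh was also positive after scaling without mitochondrially encoded genes (0.22), with a pseudocount of 1 (0.052), with voom (0.011), and without Chow replicate 2 (0.36), HFpEF replicate 1 (0.50) or HFpEF replicate 3 (0.59), its range with a library left out being -1.18 to 0.59. The second Aldoa row was negative after quantile normalization (-0.36), with a pseudocount of 0.01 (-0.12), with voom (-0.066), and without Chow replicates 1 (-0.24) or 2 (-0.13) or HFpEF replicates 1 (-0.37) or 3 (-0.39), its range with a library left out being -0.39 to 0.83. Without HFpEF replicate 3, Eno1 was at -0.071, the Pdk2 to Pdk4 log2 ratio difference at 0.019 and that of Pdk4 to Pdp1 at -0.12. With a library left out these 3 ranged from -0.071 to 0.14, from -0.56 to 0.019 and from -0.12 to 0.24. Of 696 member values under alternatives, 637 kept their direction and side of the threshold. Another 40 changed direction, 26 of them under cardiomyocyte scaling, and 19 crossed the threshold, all without HFpEF replicate 3. No member passed the threshold in the main fit, so staying on the same side was likely in advance.

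Over all genes, the 14 with an adjusted p under 0.05 became 20 with quantile normalization, 240 with cardiomyocyte scaling, 77 without mitochondrially encoded genes, 3 and 5 with pseudocounts of 1 and 0.01, 12 with no filter, 10 with an FPKM minimum of 1, 32 without trend and robust options, 0 with voom and 2 to 1189 with a library left out. Equal replicate numbers did not pair the libraries (correlations of -0.041, -0.073 and -0.057). With the number as a block, 24 members were lower, 3 higher and 0 had an adjusted p under 0.05, and 2 of all genes did. Depth limited the second Aldoa row most, while the other members held at least 95 reads in each library.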
